A study of Cyprinus carpio with 18 samples.

Results

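The genes described are those of melanin synthesis and of its regulator MITF in developing common carp (Cyprinus carpio). Protein-coding rows of the deposited table were taken when their product name contained tyrosinase, dopachrome tautomerase, melanocyte protein PMEL, premelanosome or microphthalmia-associated transcription factor. Of 90808 features, 49264 of them protein-coding, 16 rows matched, and the 10 members were chosen by their counts summed over all libraries, the highest first. They are 2 tyrosinase rows (TYR), 3 dopachrome tautomerase rows (DCT), 3 of 4 PMEL rows and 2 of 7 MITF rows. The last member inside the limit was the PMEL row LOC109063725 with 1541 counts, and the first row outside it was the MITF row LOC109081700 with 998 counts. All 10 members passed the filter on low counts, as did 14 of the 16 matching rows. The name of the group suits 8 members, since MITF is a transcription factor and makes no pigment itself.

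RNA was sequenced from whole wild-type embryos and larvae of the farmed FFRC No.2 strain, bred by selection from Jian, Huanghe and Heilongjiang common carp, with 3 libraries for each of 6 stages. Embryos were taken 2 hours after fertilization (cleavage), and after 6 hours (blastocyst), 12 hours (gastrulation), 20 hours (organ formation) and 64 hours (hatching), and larvae 1 day after hatching. Per the labels' protocols RNA was pooled within each stage before library construction, and no label names separate spawnings, so the p-values given here reflect library-to-library spread alone, which may be technical. Library totals ran from 16326813 to 43270557 counts.

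Melanin is made in melanosomes, the pigment organelles of melanophores in the skin and of the retinal pigment epithelium behind the eye. Tyrosinase oxidises tyrosine in the rate-limiting step, dopachrome tautomerase converts an intermediate further down the same route, and PMEL forms the fibrils on which the pigment is laid down. MITF switches on the genes of this route in both kinds of pigment cell. Carp carries an additional genome duplication, so most genes of the route are present in more than 1 copy.

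Larva replicate 3 stands apart from the other larva libraries and touches every larval value given here. Over all tested features the log2 CPM of larva replicate 3 correlated with r = 0.945 and r = 0.949 with replicates 1 and 2, against r = 0.979 between replicates 1 and 2. At cleavage, replicate 1 held 0 counts of the MITF member LOC109068256, against 40 and 26 counts in replicates 2 and 3. The larval calls of members, the summed larval level and the larval counts of the gene lists are given with and without larva replicate 3. Fewer features were called without it. In the larva 1992 of 72008 features then rose and 3179 fell, against 3686 and 4248 of 69265 with all libraries. Percentages of all features beside larval counts are those of the fit of all libraries.

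The 8 TYR, DCT and PMEL members were close to undetected up to gastrulation, appeared at organ formation, were highest at hatching and were lower again in the larva. Levels are CPM (counts per library scaled to a common depth) ± SD over 3 libraries. Summed over the 8 members, the level was 0.230 ± 0.246 CPM at cleavage, 0.40 ± 0.349 CPM at blastocyst and 1.41 ± 0.138 CPM at gastrulation. It was 80.9 ± 4.04 CPM at organ formation, 427.5 ± 24.6 CPM at hatching and 159.4 ± 85.2 CPM in the larva. The larva libraries summed to 200.7, 216.0 and 61.45 CPM, so the larval mean without replicate 3 was 208.3 CPM. CPM are relative to all counted RNA of the whole animal. A lower level thus need not be a loss of pigment cells or of RNA per pigment cell. Such causes cannot be told apart in whole animals. Each of the 10 members differed among the 6 stages (edgeR quasi-likelihood test, adjusted p under 0.05), as did 93.7% of the 69265 features tested.

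**Figure D1:**
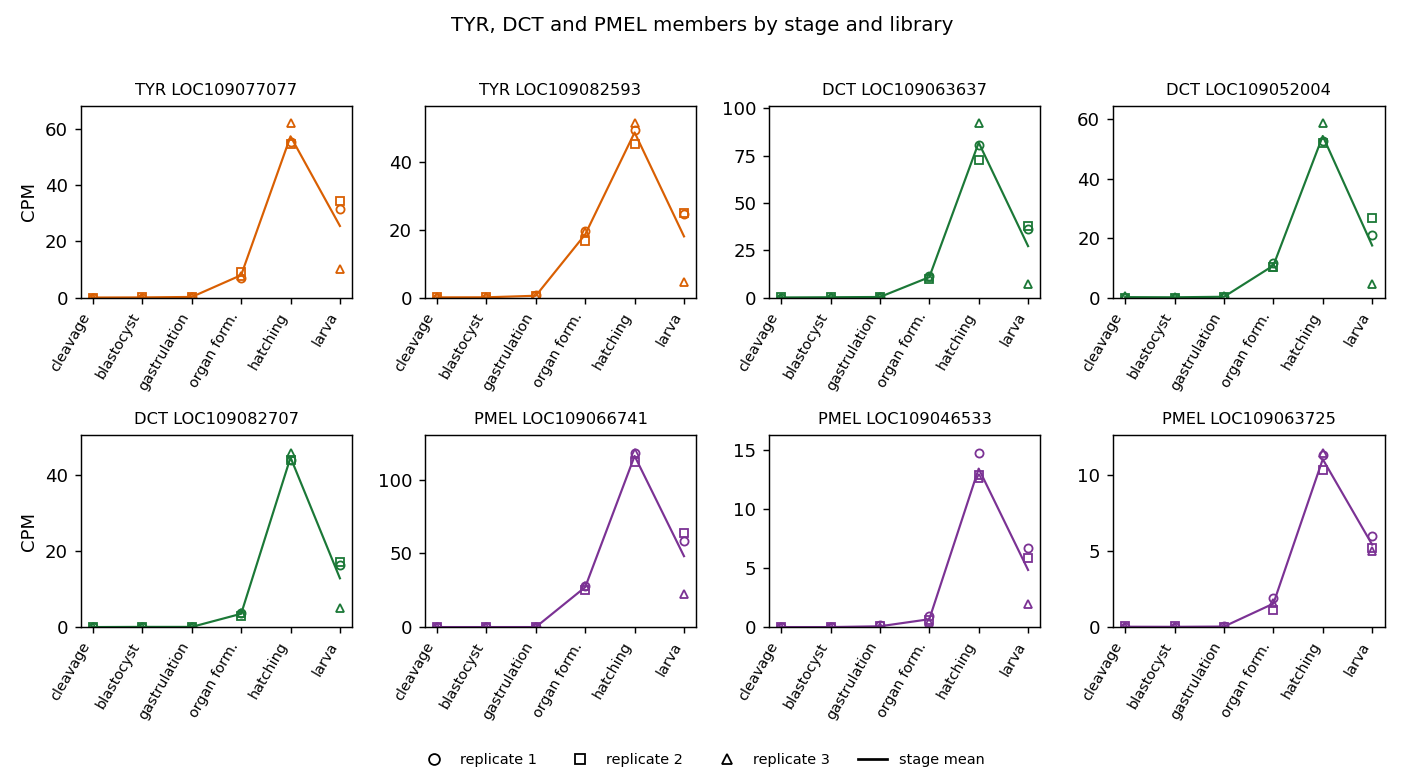
CPM (linear axis from 0) of the 2 TYR, 3 DCT and 3 PMEL members at the 6 stages; symbols are single libraries and lines join stage means. All 8 are highest at hatching, and the triangle of larva replicate 3 is the lowest larva library in each panel.

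At organ formation, set against gastrulation, 9 of 10 members rose and 0 fell (edgeR, adjusted p under 0.05), against 28.1% of all features that rose and 19.8% that fell. The exception was the MITF member LOC109068256. No member was lower at an unadjusted p under 0.05, and DESeq2 also called 9 higher and 0 lower. With limma on log2(RPKM + 1) 7 were called, and LOC109046533 (adjusted p = 0.46) and LOC109066995 (adjusted p = 0.065) were not. The median log2 change of the 10 members was 5.28, against 0.25 over all features tested. Over all 14 matching rows that passed the filter on low counts, 11 rose. The filter and the ranking of members both used the counts of these same libraries. Rows could thus enter through the later stages alone, and these 14 rows are no independent check.

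At hatching, set against organ formation, 9 of 10 members rose and 0 fell, against 17.4% of all features that rose and 12.2% that fell. The median log2 change of the members was 2.59, against -0.01 over all features. At an unadjusted p under 0.05 the count of lower members was also 0, and DESeq2 called 8 higher and 0 lower. Of the 14 matching rows that passed the filter, 11 rose, with the same limit.

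The 2 tyrosinase rows both rose at organ formation but differed in how far they rose afterwards. Only LOC109082593 was also called at gastrulation, a call with limits given below. LOC109077077, named tyr in RefSeq, had 6.84, 9.27 and 7.83 CPM at organ formation, against 0.273, 0.130 and 0.211 CPM at gastrulation. At hatching it had 55.6, 54.6 and 62.2 CPM, with no overlap with either earlier stage. The log2 change was 5.35 (SE 0.56) at organ formation (edgeR adjusted p = 4.4e-07) and 2.85 (SE 0.36) at hatching (edgeR adjusted p = 1.3e-05).

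The other tyrosinase row, LOC109082593, was the higher of the pair per length before hatching, with 1.70 ± 0.0780 RPKM at organ formation where LOC109077077 had 0.847 ± 0.208 RPKM (RPKM are reads scaled to feature length and library size). It had 19.6, 16.8 and 19.4 CPM at organ formation, against 0.682, 0.456 and 0.422 CPM at gastrulation. Its hatching libraries had 49.4, 45.2 and 51.4 CPM, so its mean was 2.61 times that of organ formation, while that of LOC109077077 was 7.201 times as high. Its log2 change was 5.22 (SE 0.56) at organ formation and 1.39 (SE 0.40) at hatching (edgeR adjusted p = 0.013), and the hatching call was lost without organ formation replicate 2 (adjusted p = 0.055).

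The 3 dopachrome tautomerase rows all rose at both steps. LOC109063637 had 11.4, 10.01 and 10.9 CPM at organ formation, against 0.136, 0.358 and 0.352 CPM at gastrulation. The hatching values were 80.8, 72.7 and 92.2 CPM, and its log2 change from organ formation was 2.93 (SE 0.47; edgeR adjusted p = 0.00019). The deposited table classes this row as protein-coding and RefSeq as a pseudogene, and its length was 0.489 of that of the longest DCT row. Which of these classes holds in the studied strain was not tested.

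LOC109052004 had 631 counts in all at organ formation, as many as LOC109063637, and gained less at hatching. It had 11.7, 10.3 and 10.3 CPM at organ formation, against 0.273, 0.130 and 0.352 CPM at gastrulation. At hatching it had 52.5, 51.9 and 58.7 CPM (log2 change 2.34, SE 0.54, edgeR adjusted p = 0.0035). DESeq2 did not call this change (adjusted p = 0.13).

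LOC109082707, named dct in RefSeq, was lowest of the 3 per length at organ formation, with 0.371 ± 0.0180 RPKM, and had the largest ratio at hatching. It had 3.81, 3.02 and 3.63 CPM at organ formation, against 0, 0.130 and 0 CPM at gastrulation. Its hatching libraries had 43.9, 43.9 and 45.7 CPM, a mean 12.8 times that of organ formation (log2 change 3.67, SE 0.43, edgeR adjusted p = 5.3e-06). Its hatching libraries lay within a ratio of 1.04 of each other.

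The 3 PMEL members rose at both steps, by unequal ratios. The PMEL row outside the limit, LOC109045623, was called at hatching only. At organ formation it held 4 counts in all, against 1 at gastrulation, a difference that edgeR did not call (adjusted p = 0.27). It then rose by 5.23 on the log2 scale, to 252 counts at hatching (edgeR, adjusted p = 0.00015). In the larva edgeR did not call it as lower (adjusted p = 0.22). LOC109066741, with the highest counts of all members, had 544, 510 and 535 counts at organ formation, against 0, 1 and 0 counts at gastrulation. The ratio of these sums per library size was 1999, with an exact 95% counting interval from 358 to 79020, and such intervals and the floors used below reflect counting error alone. The hatching values were 118, 112 and 118 CPM, against 28.0, 25.3 and 28.1 CPM at organ formation. That log2 change was 2.10 (SE 0.27; edgeR adjusted p = 3.8e-05).

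The PMEL row LOC109046533 had 0.977, 0.595 and 0.420 CPM at organ formation, against 0.136, 0.0651 and 0 CPM at gastrulation. At hatching it had 14.8, 12.9 and 12.6 CPM, a mean 20.2 times that of organ formation (log2 change 4.33, SE 0.50, edgeR adjusted p = 3.4e-06). The same ratio was 4.28 for LOC109066741, so the rows did not keep step.

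The PMEL row LOC109063725 gained 7.17 times at hatching, a ratio between those of the other 2. It had 1.90, 1.14 and 1.58 CPM at organ formation, against 0.0682, 0 and 0.0352 CPM at gastrulation, where it had 2 counts in all. The ratio of summed counts per library size was 56.6, with an exact 95% interval from 15.2 to 475. Its hatching libraries had 11.3, 10.3 and 11.5 CPM (log2 change 2.84, SE 0.39, edgeR adjusted p = 9.2e-06).

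**Figure D2:**
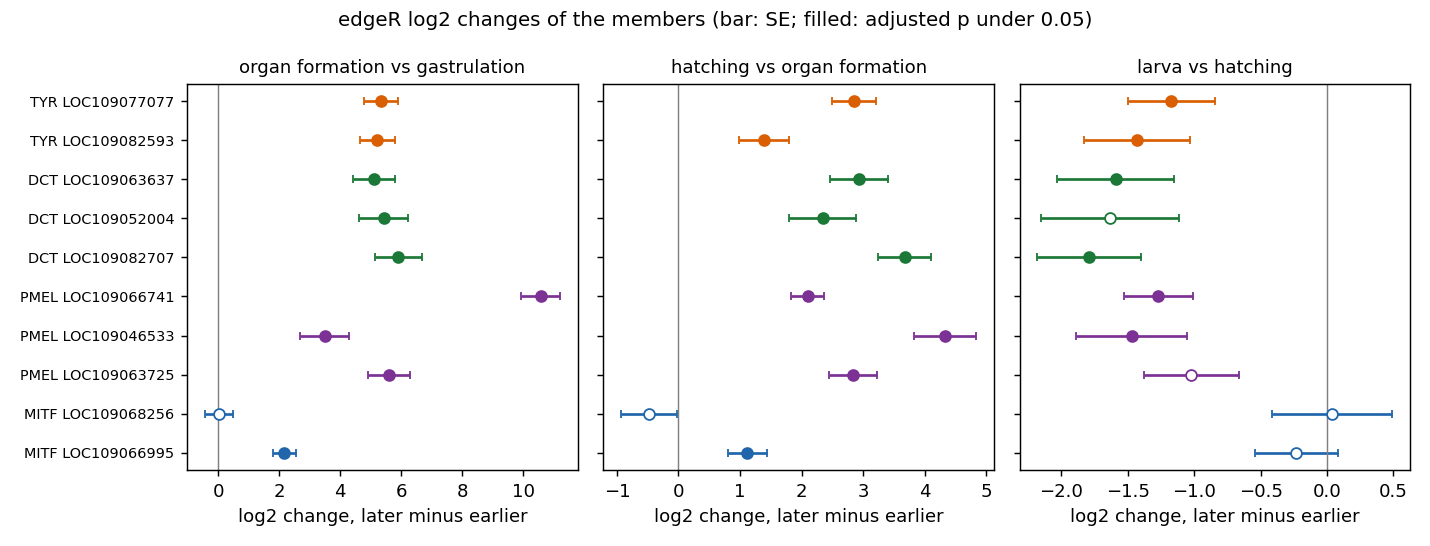
Log2 change of each member in 3 comparisons, later stage minus earlier stage; filled points passed an adjusted p under 0.05. The bar is an SE back-calculated from the F statistic of the edgeR test. It can understate the uncertainty where gastrulation counts were few. At organ formation LOC109066741 had an SE of 0.63, and its change ran from 9.9 to 12.51 when single libraries were left out. The TYR, DCT and PMEL members lie right of 0 at organ formation and hatching and left of 0 in the larva, and the MITF member LOC109068256 lies within about 1 SE of 0 in each.

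Before gastrulation the TYR, DCT and PMEL members were hardly counted. At cleavage 4 of the 8 had 0 counts in all 3 libraries, which allows a level of up to 0.0339 CPM at a floor of 3 counts over the stage. At blastocyst, set against cleavage, 0 of 10 members passed the test, against 15.8% of all features that rose and 6.52% that fell. No member had an unadjusted p under 0.05 in edgeR, and DESeq2 called 0, while limma on log2(RPKM + 1) called 1 as lower.

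At gastrulation, set against blastocyst, 3 members rose and 1 fell, against 44.4% and 22.3% of all features. Both MITF members are among these 4, in opposite directions. The tyrosinase row LOC109082593 had 10, 14 and 12 counts at gastrulation, against 0, 5 and 3 counts at blastocyst (log2 change 2.85, SE 0.98, edgeR adjusted p = 0.017). The PMEL row LOC109046533 had 2, 2 and 0 counts at gastrulation, against 0 in every blastocyst library (edgeR adjusted p = 0.049). Per library size this was 2.24 times a floor of 3 counts over the blastocyst stage. That ratio takes the gastrulation counts as exact and is no lower limit. Both calls were lost when library totals replaced TMM factors (adjusted p = 0.063 and 0.089), a scaling under which the median log2 change of all features was 0.10 in place of 0.75. They were also lost with limma at either pseudocount. That of LOC109082593 was lost without blastocyst replicate 1 (adjusted p = 0.064) or 3 (0.052) as well. That of LOC109046533 was lost with either other filter (adjusted p = 0.056 and 0.054) and when any of 12 single libraries was left out, with edgeR adjusted p of 0.051 to 0.14.

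The 2 MITF members followed courses unlike those of the enzymes and unlike each other. LOC109068256 had 0, 1.34 and 1.27 CPM at cleavage and 1.97, 2.05 and 1.33 CPM at blastocyst. It had 14.2, 14.2 and 11.5 CPM at gastrulation, and rose there by 2.89 (SE 0.49) on the log2 scale (edgeR adjusted p = 3.9e-05). The 8 TYR, DCT and PMEL members rose at the next stage, organ formation, and were highest at hatching. Of these, LOC109082593 and LOC109046533 were also called at gastrulation itself, with the limits given above. A link between these courses was not tested.

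Afterwards LOC109068256 showed no further called change. It had 15.2, 11.2 and 13.9 CPM at organ formation, 8.78, 10.9 and 9.09 CPM at hatching and 9.07, 8.21 and 12.3 CPM in the larva. Its log2 change was 0.02 (SE 0.45) at organ formation, -0.48 (SE 0.45) at hatching and 0.04 (SE 0.45) in the larva, with edgeR adjusted p of 0.99, 0.46 and 0.98. The hatching libraries were all below those of organ formation, yet the difference was close to its SE.

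LOC109066995 was present from the first stage. It had 4.84, 3.86 and 3.86 CPM at cleavage, 2.28, 3.29 and 3.10 CPM at blastocyst and 0.546, 0.260 and 0.598 CPM at gastrulation. At gastrulation it fell by 2.65 on the log2 scale (SE 0.37; edgeR adjusted p = 1.8e-06), to 16.2% of its blastocyst mean. Per length, LOC109068256 was at 0.933 ± 0.144 RPKM at that stage and LOC109066995 at 0.0247 ± 0.00912 RPKM.

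It was higher again at the later stages. It had 1.59, 2.08 and 2.52 CPM at organ formation, 3.34, 5.38 and 4.73 CPM at hatching and 3.22, 3.96 and 4.28 CPM in the larva. The log2 change was 2.17 (SE 0.38; edgeR adjusted p = 5.8e-05) at organ formation and 1.12 (SE 0.32; edgeR adjusted p = 0.011) at hatching, a call lost without organ formation replicate 1 (adjusted p = 0.061) or hatching replicate 2 (adjusted p = 0.057). Its larval change of -0.23 (SE 0.31) was not called (edgeR adjusted p = 0.75).

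The MITF rows outside the limit added further courses, some closer to that of the enzymes. LOC109058794 had 0 counts at cleavage and at blastocyst and 3 counts at gastrulation. It had 1.52 ± 0.159 CPM at organ formation (log2 change 5.11, SE 0.76, edgeR adjusted p = 2.1e-05). Its 1.76 ± 0.367 CPM at hatching and 0.8 ± 0.384 CPM in the larva were not called as changes (edgeR adjusted p = 0.81 and 0.21). LOC109081700 rose at organ formation (log2 change 1.89, SE 0.62, edgeR adjusted p = 0.015) and at hatching (1.56, SE 0.53, edgeR adjusted p = 0.030). It had 149, 201 and 142 counts in the larva, against 106, 145 and 112 at hatching. Its larva libraries lay at 148%, 181% and 161% of the hatching mean in CPM (log2 change 0.71, SE 0.50, edgeR adjusted p = 0.45, not called). LOC109068263, which lies on the same sequence as LOC109068256, rose at gastrulation like it (log2 change 2.80, SE 0.80, edgeR adjusted p = 0.0042). The row named mitfa in RefSeq, LOC109087601, had 38 counts in all and was not tested. It had 0 counts up to gastrulation, 6 at organ formation, 24 at hatching and 8 in the larva. In zebrafish mitfa is required for melanophores.

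**Figure D3:**
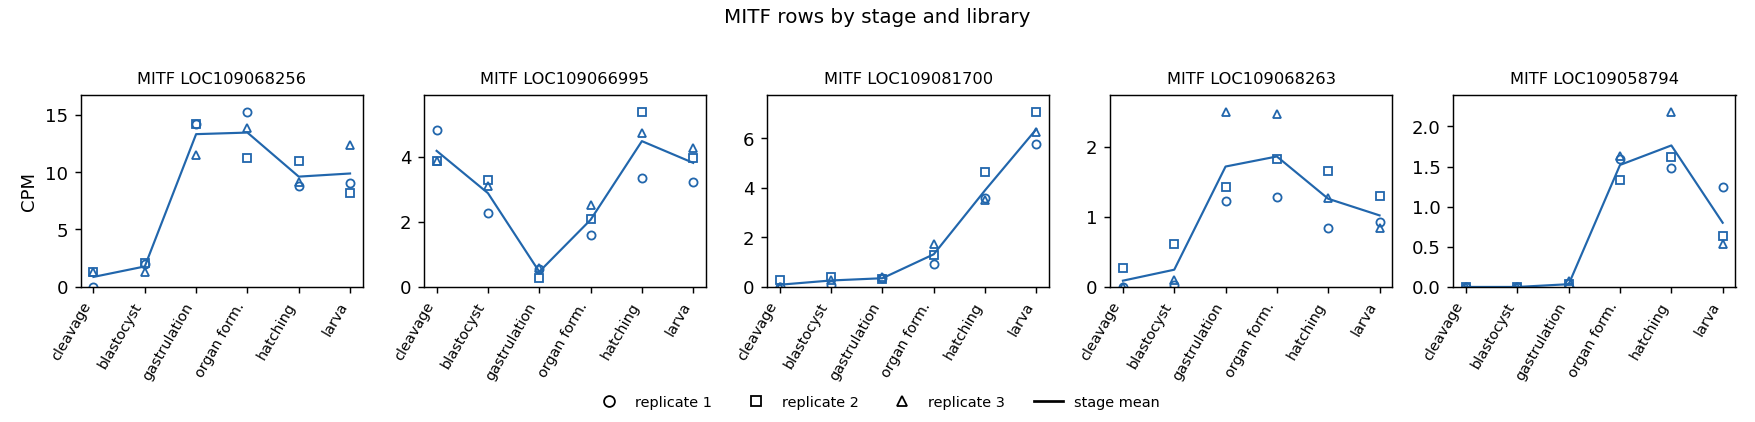
CPM (linear axes from 0, of different height) of the 5 MITF rows with over 100 counts at the 6 stages; symbols are single libraries and lines join stage means. LOC109068256 and LOC109066995, the first 2 panels, are members and move in opposite directions at gastrulation.

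In the larva 6 of the 10 members fell relative to hatching and 0 rose, against 6.13% of all features that fell and 5.32% that rose. At an unadjusted p under 0.05 the members counted 8 lower and 0 higher, and DESeq2 called 5 lower and 0 higher, 4 of them among the 6. DESeq2 did not call LOC109063637 (adjusted p = 0.16) or LOC109082593 (adjusted p = 0.075), and called LOC109063725 (adjusted p = 0.0012). In edgeR the call of LOC109063637 was lost when no filter was used (adjusted p = 0.053) and that of LOC109077077 with library totals (adjusted p = 0.052). All 6 belong to the 8 TYR, DCT and PMEL members, whose larva libraries all lay below their hatching libraries. Larva libraries lay wholly below hatching libraries in 17.7% of all features. The median log2 change of the 8 was -1.45, against 0.00 over all features.

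The PMEL row LOC109066741 had 58.1, 63.8 and 22.6 CPM in the larva, against 118, 112 and 118 CPM at hatching (log2 change -1.27, SE 0.26, edgeR adjusted p = 0.0059). The dct row LOC109082707 had 16.3, 17.1 and 5.03 CPM in the larva, against 43.9, 43.9 and 45.7 CPM at hatching (log2 change -1.79, SE 0.39, edgeR adjusted p = 0.0055). Larva replicates 1 and 2 lay close together in both rows and replicate 3 well below them. These were the only 2 members still called when any hatching library was left out.

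The tyr row LOC109077077 had 31.7, 34.5 and 10.3 CPM in the larva, against 55.6, 54.6 and 62.2 CPM at hatching (log2 change -1.17, SE 0.33, edgeR adjusted p = 0.030). LOC109082593 had 24.7, 24.8 and 4.497 CPM in the larva, against 49.4, 45.2 and 51.4 CPM at hatching (log2 change -1.43, SE 0.40, edgeR adjusted p = 0.025). LOC109082593 was at 9.25% of the hatching mean in larva replicate 3, below every organ formation library. LOC109077077 was at 17.9% there, above its organ formation libraries.

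Of the DCT rows, LOC109063637 had 36.2, 37.98 and 7.41 CPM in the larva, against 80.8, 72.7 and 92.2 CPM at hatching (log2 change -1.59, SE 0.44, edgeR adjusted p = 0.028). LOC109052004 had 21.0, 26.8 and 4.67 CPM, against 52.5, 51.9 and 58.7 CPM at hatching, and missed the threshold with a larger difference and SE (log2 change -1.63, SE 0.52, edgeR adjusted p = 0.054). The PMEL row LOC109046533 had 6.66, 5.86 and 1.98 CPM in the larva, against 14.8, 12.9 and 12.6 CPM at hatching (log2 change -1.47, SE 0.42, edgeR adjusted p = 0.028). LOC109063725 had 6.01, 5.23 and 5.03 CPM, against 11.3, 10.3 and 11.5 CPM (log2 change -1.02, SE 0.36, edgeR adjusted p = 0.069), and was the one enzyme or fibril row in which replicate 3 was close to the others.

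**Figure D4:**
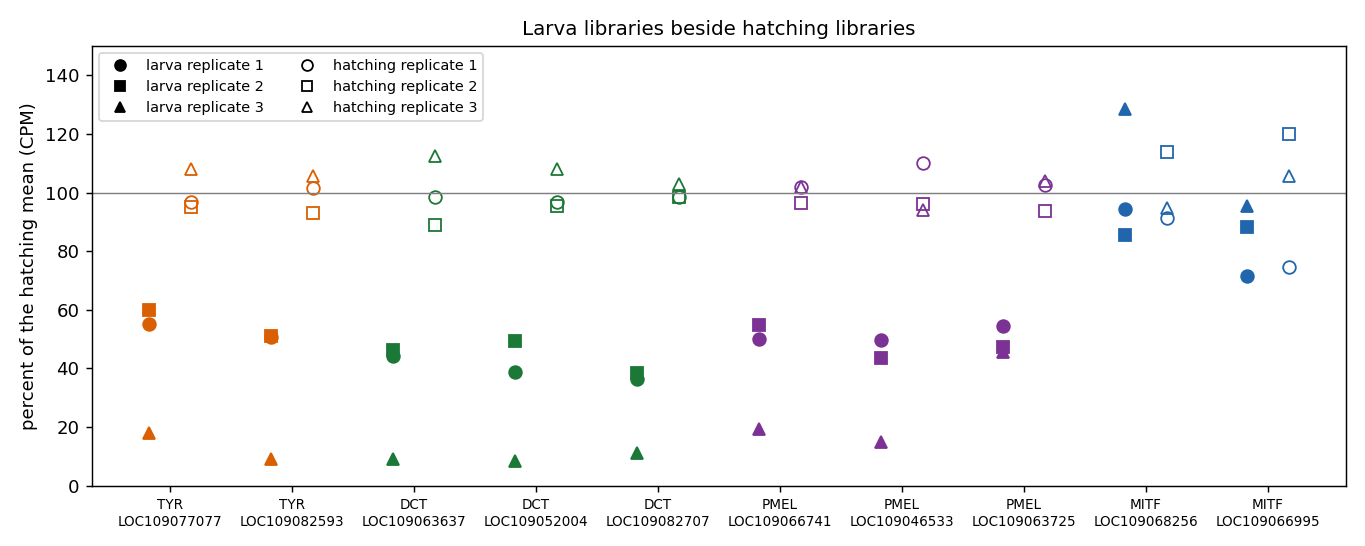
Each member's larva libraries (filled, left) and hatching libraries (open, right) as percent of its hatching mean in CPM. In 7 of the 8 TYR, DCT and PMEL members larva replicate 3 is under 50% of both other larva libraries, while both MITF members are highest there.

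Larva replicate 3 was the lowest larva library in 8 of the 8 TYR, DCT and PMEL members. Its ratio to the mean of replicates 1 and 2 ran from 0.182 to 0.895 with a median of 0.306, while the median over 48307 features of 1 CPM or more in the larva was 0.946. It was under 50% of both other libraries in 7 of the 8, against 4.68% of those features, 0.342% for replicate 1 and 0.286% for replicate 2. The ratio was 1.43 for the MITF member LOC109068256 and 1.19 for LOC109066995.

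The larva libraries were below hatching without that library too. With replicate 3 left out, the mean of larva replicates 1 and 2 was 37.5% of the hatching mean for LOC109082707 and 57.6% for LOC109077077, the lowest and highest of the 8. Again 6 members were called as lower, 5 of them in common with the fit of all libraries, with LOC109052004 called (adjusted p = 0.040) and LOC109046533 not (adjusted p = 0.083). In that fit 3179 of 72008 features fell. Without any 1 of the hatching libraries 2 members were called, with log2 changes of the others close to those of the full fit. Fewer features were called in those fits too. Without hatching replicates 1, 2 and 3 in turn, 2488, 3932 and 2375 features fell, against 4248 in the full fit.

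Members of a kind had other proportions at hatching than at organ formation. Shares were taken from the deposited RPKM, which allow copies of different length to be set side by side. They are shares among the members of a kind, so the PMEL row LOC109045623 was left out. That row had 0.922 ± 0.101 RPKM at hatching and 0.0172 ± 0.0150 RPKM at organ formation. LOC109077077 held 56.4%, 58.1% and 58.1% of the tyrosinase RPKM at hatching, against 28.5%, 38.7% and 31.7% at organ formation, so the leading tyrosinase row changed. The difference was 24.6 percentage points with no overlap (exact two-sided permutation test, p = 0.10, the smallest that 3 against 3 libraries allow).

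Among the PMEL rows the leading copy lost share. LOC109066741 held 61.3%, 62.8% and 63.2% of the PMEL RPKM at hatching, against 77.3%, 83.6% and 83.2% at organ formation. LOC109046533 held 20.8% ± 1.31 at hatching and 5.69% ± 2.10 at organ formation (SD, n = 3 each). Neither pair of groups overlapped (exact two-sided permutation test, p = 0.10 for each).

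Among the DCT rows LOC109063637 held 61.6% ± 1.79 at hatching and 59.1% ± 0.928 at organ formation. The difference was 2.51 points, and 1.73 to 3.49 points when single libraries were left out, with overlapping libraries (exact permutation p = 0.20). LOC109082707 held 16.5% ± 1.13 at hatching and 9.33% ± 0.560 at organ formation, and LOC109052004 held 21.9% ± 0.705 and 31.6% ± 1.25, neither with overlap. Of the 2 MITF members, LOC109068256 held 73.9% ± 3.14 at hatching and 89.3% ± 2.83 at organ formation. The sources used here do not say how reads matching several copies were counted, so shares between near-identical copies are uncertain.

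Between larva and hatching the share of the leading row of each kind differed by fewer points. LOC109077077 held 59.5%, 61.4% and 72.4% in the larva, against 56.4%, 58.1% and 58.1% at hatching (exact permutation p = 0.10), and the difference was 2.98 points without larva replicate 3 and 6.93 points with it. The larval shares of the leading DCT, PMEL and MITF rows overlapped those at hatching (exact permutation p = 0.60, 0.80 and 0.20). In larva replicate 3 LOC109063725 held 33.5% of the PMEL RPKM, against 18.03% and 15.5% in replicates 1 and 2.

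**Figure D5:**
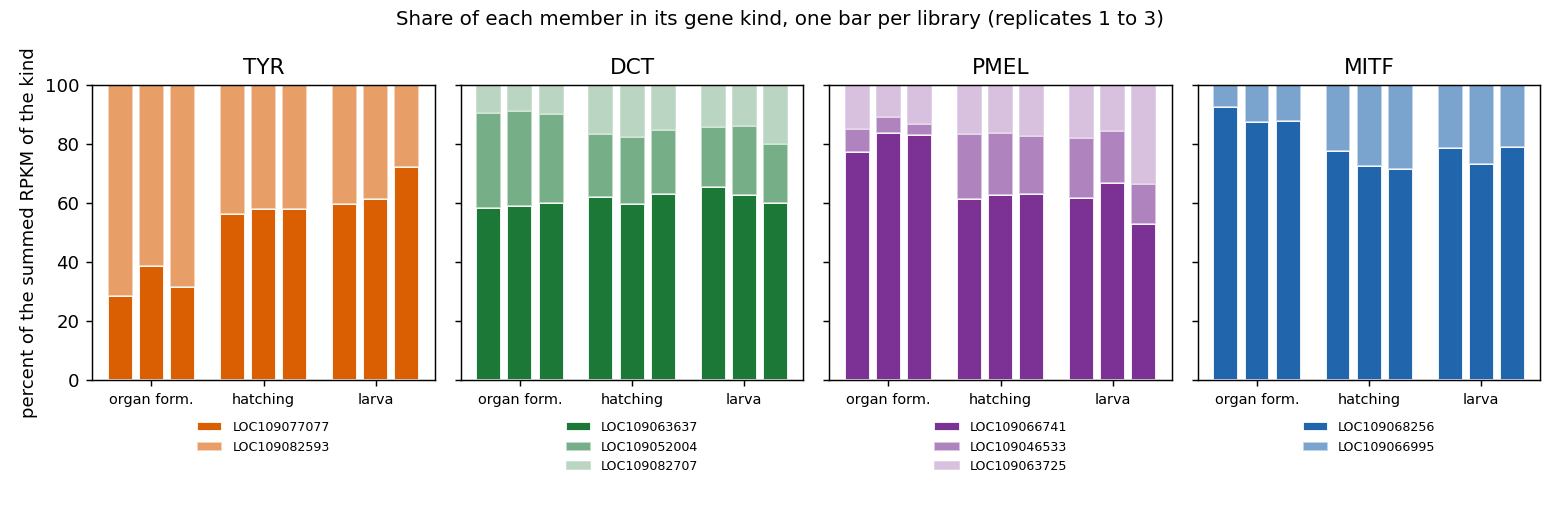
Share of each member in the summed RPKM of the members of its kind, with 1 bar per library (replicates 1 to 3) at organ formation, hatching and larva. The dark part of the TYR bars, LOC109077077, is 57.5% on average at hatching and 32.97% at organ formation, and that of the PMEL bars, LOC109066741, is 62.4% at hatching and 81.4% at organ formation.

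Per length, the DCT row LOC109063637 stood first at hatching with 23.9 ± 2.94 RPKM, a value that rests on its short annotated length. The PMEL row LOC109066741 followed with 9.98 ± 0.481 RPKM, then LOC109052004 with 8.48 ± 0.577 and LOC109077077 with 8.05 ± 0.568 RPKM, 2 neighbours whose libraries overlapped. LOC109082707 with 6.35 ± 0.171 RPKM and LOC109082593 with 5.95 ± 0.445 RPKM also overlapped.

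The low end of this order held the remaining PMEL rows and MITF. LOC109046533 had 3.33 ± 0.356 RPKM and LOC109063725 2.68 ± 0.187 RPKM at hatching. The MITF members had 1.13 ± 0.119 RPKM for LOC109068256 and 0.402 ± 0.0864 RPKM for LOC109066995. At organ formation LOC109068256, with 1.18 ± 0.0823 RPKM, was above LOC109077077 with 0.847 ± 0.208 RPKM and close to LOC109052004 with 1.26 ± 0.0586 RPKM.

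Tyrosinase-related protein 1, the remaining enzyme of the family, carries another product name and was not matched by the rule. Its 3 rows (tyrp1a, tyrp1b and LOC109079718) all rose at organ formation and at hatching, where 28.1% and 17.4% of all features rose. The tyrp1b row LOC109085040 had 87.8, 83.0 and 96.7 CPM at hatching, against a mean of 7.26 ± 1.56 CPM at organ formation (log2 change 3.62, SE 0.33, edgeR adjusted p = 1.2e-06). Larval levels fell in 1 of the 3, against 6.13% of all features. This was the tyrp1a row LOC109078260, with 21.0, 26.1 and 6.35 CPM against 50.2 ± 3.17 CPM at hatching (log2 change -1.49, SE 0.36, edgeR adjusted p = 0.0097). Without larva replicate 3 this change was -1.11 (SE 0.24; edgeR adjusted p = 0.0052), and again 1 of the 3 rows fell. In that fit 3179 of 72008 features fell. Summed, the 3 rows were at 108, 131 and 41.7 CPM in the larva, so larva replicate 3 was lowest here too.

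Transporters and receptors of the melanosome, a list of 24 tested rows, had 12 risen and 8 fallen at organ formation, where 28.1% of all features rose and 19.8% fell. At hatching 11 rose and 5 fell, against 17.4% and 12.2% of all features. In the larva 1 rose and 2 fell, against 5.32% and 6.13%, and without larva replicate 3 the counts were 0 and 2. In that fit 1992 of 72008 features rose and 3179 fell. Of the 4 rows with the highest mean level 1 rose and 3 fell at organ formation. The P protein row LOC109101966, a melanosomal transporter, had 17.6, 18.1 and 14.7 CPM at organ formation, against 2.64 ± 0.269 CPM at gastrulation (log2 change 2.69, SE 0.38, edgeR adjusted p = 8.2e-06). This row had stood at 32.3 ± 2.48 CPM at cleavage and 37.0 ± 4.28 CPM at blastocyst, above its mean at every later stage. Between blastocyst and gastrulation it had fallen (edgeR adjusted p = 5.3e-08), with a log2 change of -3.82 (SE 0.38). It had no called change at hatching (15.7 ± 0.394 CPM), and in the larva it had 13.3, 14.3 and 2.73 CPM, again lowest in replicate 3. The copper-transporting ATPase 1-like row LOC109052677 fell to 35.1 ± 4.52 CPM at organ formation, against 50.3 ± 2.73 CPM at gastrulation (log2 change -0.52, SE 0.12, edgeR adjusted p = 0.0011). The cation channel row LOC109101214 fell by 0.57 on the log2 scale (SE 0.16; edgeR adjusted p = 0.0051) and the major facilitator superfamily row LOC109053025 by 1.12 (SE 0.21; edgeR adjusted p = 9.6e-05).

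Rows for organelle assembly and movement, of which 63 were tested, had 15 risen and 34 fallen at gastrulation, against 44.4% and 22.3% of all features. Their summed level was 1195 to 1290 CPM at cleavage and 459 to 532 CPM at gastrulation. It was 778 to 823 CPM at organ formation and 1074 to 1135 CPM at hatching. At organ formation 35 rose and 4 fell, against 28.1% and 19.8% of all features, and at hatching 20 rose and 3 fell, against 17.4% and 12.2%. At the larval stage 0 rose and 0 fell in edgeR, with 2 higher and 5 lower at an unadjusted p under 0.05, and DESeq2 called 1 higher and 0 lower. Limma on log2(RPKM + 1) called 5 higher and 4 lower, where 10455 of 71767 features rose and 4128 fell. Without larva replicate 3 the edgeR counts were 0 and 0 of 64 tested, where 1992 of 72008 features rose and 3179 fell. The AP-3 delta row LOC109110647, part of a coat complex that sorts cargo to the melanosome, had 124.0 ± 10.52 CPM at organ formation, against 71.4 ± 4.17 CPM at gastrulation (log2 change 0.79, SE 0.10, edgeR adjusted p = 1.1e-06). Its level had been 199.8 ± 18.6 CPM at cleavage, and was 191.7 ± 15.1 CPM at hatching. A second AP-3 delta row, LOC109110645, rose there by 0.31 (SE 0.10; edgeR adjusted p = 0.012). The AP-3 beta row LOC109065243 (log2 change 0.14, SE 0.10) and the AP-3 mu row LOC109067376 (0.08, SE 0.13) were not called (edgeR adjusted p = 0.24 and 0.64), and at hatching the AP-3 beta row fell by 0.41 (SE 0.10; edgeR adjusted p = 0.0023).

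Melanophores arise from the neural crest, and genes of the crest and of melanophore signalling were summed to 653.5 to 719 CPM at gastrulation, against 40.7 to 51.8 CPM at blastocyst. Much of that sum came from the AP-2-alpha-like rows (means of 295.7 and 69.7 CPM) and Pax-3-like rows (109.0 and 75.4 CPM) named below. Of 32 tested rows 22 rose and 2 fell at gastrulation, against 44.4% and 22.3% of all features, and the list median log2 change there was 3.37 against 0.75 over all features. At organ formation 13 rose and 6 fell, against 28.1% and 19.8% of all features, and the summed level was 449 to 521 CPM. At hatching 7 rose and 4 fell, against 17.4% and 12.2% of all features. In the larva 2 rose and 4 fell, against 5.32% and 6.13%, and without larva replicate 3 the counts were 0 and 2. In that fit 1992 of 72008 features rose and 3179 fell. The Pax-3-like row LOC109100747, a crest transcription factor, fell to 44.0 ± 5.05 CPM at hatching, against 98.2 ± 3.81 CPM at organ formation (log2 change -1.16, SE 0.20, edgeR adjusted p = 0.00013), and to 15.8 ± 5.35 CPM in the larva (edgeR adjusted p = 6.6e-05). The other Pax-3-like row, LOC109055581, fell at hatching too (log2 change -1.08, SE 0.24, edgeR adjusted p = 0.0019). Both AP-2-alpha-like rows, also crest transcription factors, had fallen at organ formation and rose by less at hatching. At organ formation the log2 change was -1.6 for LOC109064871 and -1.62 for LOC109064828 (edgeR adjusted p = 2.6e-08 and 1.6e-08). LOC109064871 had 132.0 ± 3.89 CPM at hatching, against 97.2 ± 11.5 CPM at organ formation (log2 change 0.44, SE 0.16, edgeR adjusted p = 0.038), and LOC109064828 rose by 0.58 (SE 0.15; edgeR adjusted p = 0.0065). In the larva these fell by 0.52 and 0.60 on the log2 scale (edgeR adjusted p = 0.035 and 0.012), calls that were lost without larva replicate 3 (adjusted p = 0.13 and 0.056).

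Of 18 rows listed as markers of the other pigment cells, 9 had no counts at cleavage, 7 at blastocyst, 2 at gastrulation and 1 at organ formation. The presence of these cells was not tested. Of 16 tested rows of iridophores and xanthophores 12 rose and 1 fell at organ formation, against 28.1% and 19.8% of all features. At hatching 7 rose and 0 fell, against 17.4% and 12.2%, with 0 lower also at an unadjusted edgeR p under 0.05 and in DESeq2. In the larva 0 rose and 0 fell in edgeR and in DESeq2, with 2 lower and 0 higher at an unadjusted edgeR p under 0.05. At an unadjusted DESeq2 p under 0.05, 4 were lower and 0 higher. Limma on log2(RPKM + 1) called 6 lower and 0 higher, where 4128 of 71767 features fell and 10455 rose. With log2(RPKM + 0.1) it called 0 lower and 0 higher. Without larva replicate 3, 0 of these rows rose and 0 fell in edgeR, where 1992 of 72008 features rose and 3179 fell. Their summed level was 23.24 to 24.95 CPM at cleavage, 16.64 to 20.66 CPM at blastocyst and 15.55 to 20.97 CPM at gastrulation. It was 103 to 119 CPM at organ formation, 192 to 203 CPM at hatching and 151 to 159 CPM in the larva, and larva replicate 3 with 151 CPM was close to the other 2.

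Rows of the retinal pigment epithelium, the second melanin-making tissue, were counted in the same way. Of 21 tested, 5 rose and 5 fell at organ formation, against 28.1% and 19.8% of all features. At hatching 10 rose and 1 fell, against 17.4% and 12.2%. In the larva 6 rose and 3 fell, against 5.32% and 6.13%, and without larva replicate 3 the counts were 5 and 3 of 22 tested. In that fit 1992 of 72008 features rose and 3179 fell. The rows named below, chosen by mean level, include all 3 that fell and none of the 6 that rose. The list median log2 change in the larva was 0.44, against 0.0 over all features. The summed level of the list was 228 to 257 CPM at gastrulation, 66.1 to 74.4 CPM at organ formation, 179 to 193 CPM at hatching and 184 to 301 CPM in the larva. Much of the gastrulation sum came from 3 rows named below, otx2 (mean of 98.7 CPM), LOC109070244 (64.7 CPM) and LOC109085059 (33.2 CPM). The stra6-like row LOC109055657, a receptor for vitamin A uptake, had 66.0, 81.9 and 71.0 CPM at hatching, against 9.29 ± 1.24 CPM at organ formation (log2 change 2.97, SE 0.36, edgeR adjusted p = 6.5e-06), and 64.97, 66.2 and 17.4 CPM in the larva. The otx2 row, a transcription factor of eye and forebrain, fell from 98.7 ± 7.12 CPM at gastrulation to 16.2 ± 2.44 CPM at organ formation (edgeR adjusted p = 8.9e-09). It had 35.3 ± 5.26 CPM at hatching (log2 change 1.13, SE 0.21, edgeR adjusted p = 0.00049), and fell by 0.82 in the larva (edgeR adjusted p = 0.015). The homeobox row LOC109070244, OTX1 A-like by its deposited product name and otx2a in RefSeq, had 64.7 ± 5.46 CPM at gastrulation. It fell by 1.46 at hatching (SE 0.20, edgeR adjusted p = 8.4e-06) and by 1.31 in the larva (edgeR adjusted p = 0.00056). The lecithin retinol acyltransferase-like row LOC109085059 was not called at hatching (log2 change -0.11, edgeR adjusted p = 0.76) and fell by 1.13 in the larva (edgeR adjusted p = 0.0017). The part of pigment epithelium and of skin melanophores in the members' levels was not tested.

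Genes that supply or otherwise use tyrosine had 8 of 13 tested rows risen and 0 fallen at organ formation in edgeR, with 9 higher and 0 lower at an unadjusted p under 0.05 and 9 higher and 0 lower in DESeq2, against 28.1% and 19.8% of all features. At hatching 4 rose and 1 fell, against 17.4% and 12.2%. In the larva 5 rose and 1 fell, against 5.32% and 6.13%, and without larva replicate 3 the counts were 1 and 1. In that fit 1992 of 72008 features rose and 3179 fell. Dopa decarboxylase, which turns dopa away from pigment to dopamine, is named ddc in the deposited table but not in RefSeq. It had 367, 373 and 379 CPM at organ formation, against 10.3 ± 1.25 CPM at gastrulation. It fell to 23.4 ± 5.49 CPM at hatching (log2 change -3.99, SE 0.19, edgeR adjusted p = 1.5e-11) and to 3.19 ± 0.0911 CPM in the larva (edgeR adjusted p = 5.8e-08). The decarboxylase row that RefSeq names ddc is another, LOC109066248. This row had 12.9, 13.9 and 63.7 CPM in the larva, against 9.01 ± 0.931 CPM at hatching (log2 change 1.74, SE 0.51, edgeR adjusted p = 0.038), a call lost without larva replicate 3 (adjusted p = 0.52). LOC109078814, a 4-hydroxyphenylpyruvate dioxygenase-like row of tyrosine breakdown, had 16.4, 15.8 and 50.7 CPM in the larva, against 3.51 ± 0.453 CPM at hatching (log2 change 2.97, SE 0.42, edgeR adjusted p = 0.00017), and was called without replicate 3 too (adjusted p = 0.0014). The hpdl row was not called in any of the last 3 comparisons. In larva replicate 3 the list's summed level was 231 CPM, against 74.1 and 78.4 CPM in replicates 1 and 2. The part of these differences of larva replicate 3 in the members' levels was not tested.

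By likeness of course, the 8 named genes closest to the mean profile of the members had r = 0.990 to 0.992 over the 18 libraries. This is a description over libraries that share their stages, with no test. The first was an embryonic alpha hemoglobin, LOC109056207, with 16.2 CPM at organ formation, 127 CPM at hatching and 33.5 CPM in the larva. The others were rows for a motor neuron and pancreas homeobox protein, a gap junction alpha-3 protein, hemoglobin beta and alpha-1, alpha-2-macroglobulin and complement C3, and slc24a5, a cation exchanger of the melanosome with 3.74 CPM in the larva and 10.1 CPM at hatching. The members' own r with their mean profile was 0.969 to 0.992 for the 8 TYR, DCT and PMEL rows, 0.603 for LOC109068256 and 0.370 for LOC109066995.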

How the data were processed

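Whole embryos and larvae of 6 stages were sequenced in 18 strand-specific libraries after removal of ribosomal RNA, per the labels' protocols, and stages were taken from the labels. Deposited values are raw read counts per feature, per the file headers, not normalized, and all 18 library files match the series table. The RPKM values were made by the authors per feature length and library size, per the file headers; the sources used here do not name that library size. The submitters' processing notes list HISAT2, StringTie 1.3.3b, featureCounts and edgeR. Settings, genome build and annotation: not given in the sources used here, and so no coordinates are printed. RefSeq names came from a table of another carp assembly, used for names and gene class only, in which 12 of the 16 matching rows were found.

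Tests were run on the deposited counts with edgeR 4.0.16 (R 4.3.3): filterByExpr (69265 features kept), TMM factors, and a robust quasi-likelihood fit with a term for each stage. In 5 comparisons every stage was tested against the preceding one. P-values were adjusted by Benjamini-Hochberg over all tested features, and rose and fell are used of an adjusted p under 0.05. Each SE of an edgeR log2 change is the absolute change over the square root of its F statistic. It restates the test and is no separately fitted standard error. CPM use TMM factors. Shares of copies were compared with an exact two-sided permutation test (scipy 1.17.1). The alternatives were DESeq2 1.42.0, DESeq2 size factors, library totals, other filters, limma 3.58.1 on log2(RPKM + 1) and log2(RPKM + 0.1), a replicate block, and leaving out each library; the comparison of shares at hatching with those at organ formation, and the list values and summed level without larva replicate 3, were chosen after seeing the data. The fit was tested on simulated data. Libraries of a stage differed beyond sampling noise (chi-square per degree of freedom 3.68 to 28.6).

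The members, gene lists, tests and alternatives were chosen with earlier results of these data known, and the tyrosinase-related protein 1 list was added after seeing product names. Genes named are all members, the rows next outside the limit, some of the 4 rows per list highest in mean CPM, the 3 rows of tyrosinase-related protein 1, and the 8 genes with the highest correlation of log2 CPM (prior count 2) with the mean profile among features of 5 CPM or more in some stage. LOC109087601 was named for its RefSeq symbol and LOC109058794 for its course, both after their counts were seen.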

Additional observations from a re-analysis of the deposited data

How the results depend on the processing

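Over 8 alternative settings and the leaving out of each library, the called changes of members at organ formation and at hatching kept their direction in every setting run. At organ formation 9 members were called (leaving out a library, 9 to 9) but 7 with limma on log2(RPKM + 1), and at hatching 9 (8 to 9) but 8 with DESeq2. For all stages together 10 members were called throughout. At blastocyst against cleavage, 0 members were called in the main test, 1 with limma at either pseudocount (LOC109066995, lower) and 0 to 1 without a library. At gastrulation against blastocyst 4 were called, 2 with library totals and 2 with limma at either pseudocount, and 2 to 5 without a library. In the larva against hatching 6 were called, and 2 to 7 without a library, the lowest count without any of the hatching libraries. Replicate numbers did not pair the libraries, since the correlation of deviations of same-numbered libraries ran from -0.085 to 0.085 in 15 pairs, 0 of them over 0.1; with a replicate block 0, 4, 9, 9 and 6 members were called in the 5 comparisons and 10 over all stages, as without it.

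The larva minus hatching share of the leading row ranged from 2.98 to 9.39 points for TYR and from 1.87 to 4.98 for MITF without a library. For DCT it was 1.00 point and -0.351 without larva replicate 1 (range -0.351 to 2.35), and for PMEL -1.95 points and 1.76 without larva replicate 3 (range -5.10 to 1.76). The larval change of LOC109068256, which was never called, was 0.04 (without a library, -0.18 to 0.15) and turned to -0.02 without hatching replicate 1, -0.0012 without hatching replicate 3 and -0.18 without larva replicate 3. Under each alternative 32 member changes were followed, those called in the main test at stages before the larva and every larval change. Member changes not called before the larva, among them all those at blastocyst, were not followed, and the count of reversals does not cover them. Of the 832 values followed 3 were reversed, those of LOC109068256. The causes were not tested. Depth limits the stages before organ formation, where most enzyme rows had under 20 counts.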
